A study of Mus musculus with 24 samples.

Results

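The comparison described here is that of invariant natural killer T (iNKT) cells from the mesenteric lymph nodes of female mice, 24 h after an oral dose of alpha-galactosylceramide (aGC), between offspring of dams that received feces of CD1d-knockout donors (KO FT) and offspring of dams that received feces of wild-type donors (WT FT). Its members were taken by their labels and are 6 of the 24 libraries of the series, 3 from KO FT and 3 from WT FT. The comparison itself was chosen with earlier results of these data known. All of the mice were C57BL/6J, and the groups differed in the feces given to their dams. Each mouse had received 2 µg aGC in 200 µL PBS by gavage, and the remaining groups of the series held males and mice gavaged with PBS alone. The sources used here do not give the age of the mice, the number of mice per library or the sort gate. Because the transplant was given to the dam, the donor of the feces, the dam, the litter and the cage cannot be told apart, and p-values measure only how far these libraries spread, and that spread may be technical.

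iNKT cells are T cells whose semi-invariant receptor, built in mice from the segments Trav11 and Traj18, reads lipids held by the MHC-like molecule CD1d. aGC is the standard strong lipid antigen of these cells, and within hours of meeting it they release interferon gamma and IL-4 and then divide. Subsets that lean to interferon gamma, IL-4 or IL-17 are called iNKT1, iNKT2 and iNKT17, and gut microbes are known to shape how many iNKT cells settle in the gut and how they respond.

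The labelled cell type was checked against its defining genes. Trav11 had 328 to 340 CPM (counts scaled to a common library size by TMM) in the WT FT libraries and 325 to 359 in the KO FT libraries, and Traj18 had 46.5 to 49.7 and 48.1 to 51.1 CPM. Zbtb16, the transcription factor that sets up the innate-like program of iNKT cells, had 31.3 to 38.4 CPM in WT FT and 30.8 to 36.5 CPM in KO FT, and Cd3e, part of the T cell receptor complex, was at 749.6 CPM or more in all 6. The groups overlapped in Trav11, Traj18 and Zbtb16, but not in all markers of iNKT cells. Cd3e had 750 to 798 CPM in WT FT and 810 to 840 CPM in KO FT. Of 7 receptor segments of iNKT cells tested 1 was higher, 1 was lower and 5 did not pass. The beta chain segment Trbv29 had 53.3 to 55.9 CPM in WT FT and 63.9 to 74.3 CPM in KO FT. Trbv13-1 had 115.6 to 122.0 CPM in WT FT and 86.1 to 90.2 CPM in KO FT.

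Markers of other T cells were present on both sides and were higher in WT FT. Cd8a, a coreceptor that mouse iNKT cells generally lack, had 239, 245 and 251 CPM in WT FT and 199, 181 and 187 CPM in KO FT, against 4.79 to 6.77 CPM in the 6 libraries of PBS-treated females. The summed level of 106 Trav segments other than Trav11 was 272 to 276 CPM in WT FT and 187 to 199 CPM in KO FT, so that Trav11 made up 54.5 to 55.7% of all Trav counts in WT FT and 62.1 to 65.8% in KO FT, but 84.9% or more in the PBS-treated females. The summed level of 16 naive and recirculation genes was 3927 to 3986 CPM in WT FT and 3439 to 3573 CPM in KO FT, none of them at 0. Of 20 B cell markers the sum was 846 to 864 CPM in WT FT and 724 to 751 CPM in KO FT, and of 16 myeloid and dendritic markers it was 140 to 151 and 121 to 130 CPM. The myeloid sum is mostly Cst3, a protease inhibitor that many cells make, at 112 to 125 CPM in WT FT and 90.2 to 100.1 CPM in KO FT. Of the 13 myeloid markers tested 3 were lower and 1 higher, and Xcr1, a receptor of cross-presenting dendritic cells, lay the other way, at 6.90 to 7.97 and 11.9 to 13.2 CPM. The PBS-treated males and the aGC-treated females were the groups with high Cd8a, so the admixture follows neither label alone, and the labels were checked on genes chosen after their values were seen. Xist, which female cells express, averaged 9.45 to 42.4 CPM in the 4 female groups and 0.168 to 0.388 CPM in the 4 male groups, and the Y-linked gene Ddx3y averaged 0.212 CPM or less in the female groups and 43.9 to 74.9 CPM in the male groups. Ccl1 and Ifng, which aGC induces, averaged 87.8 CPM or more and 69.1 CPM or more in the 4 aGC groups, and 5.40 CPM or less and 25.7 CPM or less in the 4 PBS groups. The group means thus match the labels of sex and treatment, while the transplant labels have no such check. The part of this admixture in the differences below was not tested, and in bulk libraries fewer cells of a type and less RNA per cell cannot be told apart.

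**Figure D1:**
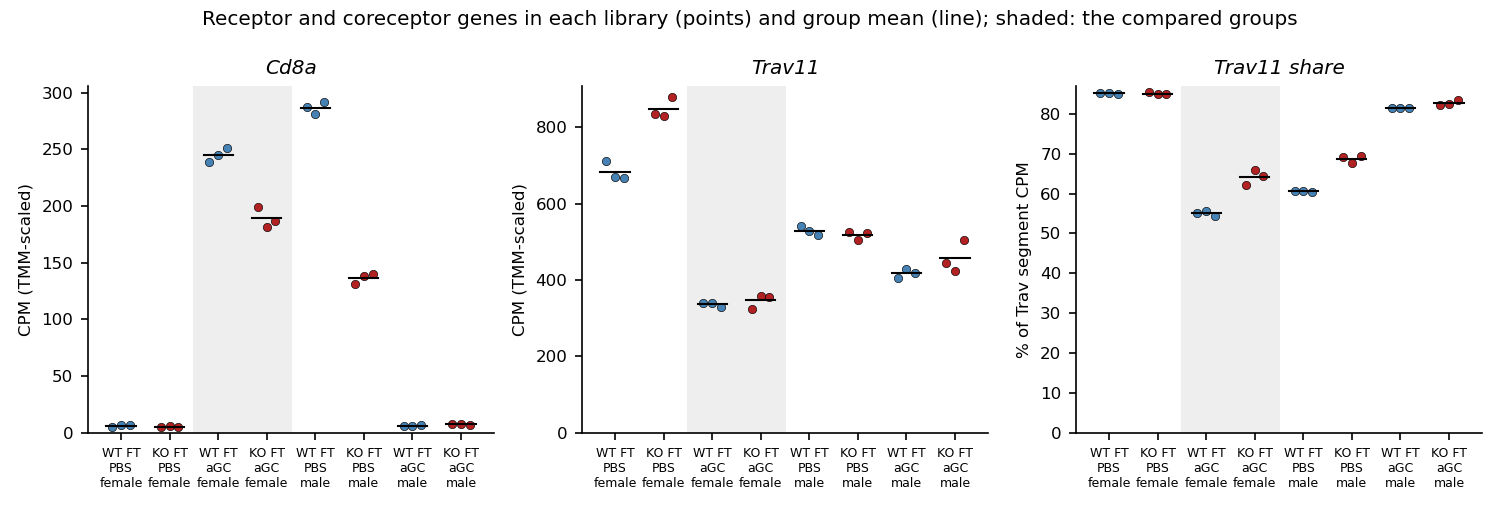
Levels of Cd8a and Trav11 (CPM with TMM scaling) and the percentage of Trav segment counts that fall on Trav11, in each of the 24 libraries (points, 3 per group, blue for WT FT and red for KO FT) with the group mean (line). In the shaded groups, females after aGC, Cd8a was higher in the 3 WT FT libraries (239 to 251 CPM) than in the 3 KO FT libraries (181 to 199 CPM), and both stood far above the females after PBS and the males after aGC.

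The 6 libraries held 9764931 to 19643254 estimated counts, so that a gene with no count in a library could still have a level of up to 0.153 to 0.307 CPM before scaling (3 counts, counting error alone). The mitochondrial share of the counts was 0.148 to 0.163% in WT FT and 0.220 to 0.301% in KO FT. Log2 levels correlated at 0.977 to 0.985 between libraries of the same group and at 0.956 to 0.964 between groups. By edgeR's quasi-likelihood test with Benjamini-Hochberg adjustment, 6931 of 15953 genes tested (43.4%) passed an adjusted p of 0.05, with 3035 higher (19%) and 3896 lower (24.4%) in KO FT. The median log2 change of all genes was -0.04, and 1820 genes (11.4%) passed and changed at least 2-fold. The KO FT libraries all lay above the WT FT libraries for 22.2% of the genes and all below them for 29.4%. When each group was reduced to 1 summed profile, with the spread taken from the 8 profiles, 0 genes passed in edgeR and 446 had an unadjusted p under 0.05. The counts below are read against these shares, since many genes of any list pass.

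Interferon-stimulated genes were lower in KO FT. These genes encode the antiviral proteins that cells make when type I interferons signal through the factor ISGF3, which binds the interferon-stimulated response element (ISRE). Of 57 type I interferon-stimulated genes tested, 37 were lower, 4 were higher and 16 did not pass, and their median log2 change was -0.48, a fall of 1.39-fold. Leaving out 1 library at a time gave 34 to 38 lower genes.

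Ifit3, an RNA-binding antiviral protein, had 129, 139 and 138 CPM in WT FT and 29.6, 29.9 and 36.3 CPM in KO FT. Usp18, which removes the ubiquitin-like modifier ISG15 and damps the type I interferon receptor, had 105, 104 and 107 CPM in WT FT and 28.9, 30.1 and 32.0 CPM in KO FT. Every KO FT library lay far below every WT FT library for both genes. The log2 change was -2.07 ± 0.08 (SE) for Ifit3, 4.21-fold lower with an adjusted p of 2.57e-14, and -1.79 ± 0.06 for Usp18, 3.47-fold lower with an adjusted p of 8.42e-16. Ifit3 shares sequence with its near copy Ifit3b, and the sources used here do not give how the counting split their reads.

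Ifit1, of the same RNA-binding family, had 122, 120 and 124 CPM in WT FT and 43.7, 43.1 and 48.1 CPM in KO FT, a log2 change of -1.44 ± 0.06. Irf7, the factor that amplifies type I interferon production, fell from 301, 295 and 300 CPM to 144, 155 and 150 CPM, a log2 change of -0.99 ± 0.06. No library of one group reached the range of the other for either gene.

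The interferon-inducible GTPases, which attack the membranes around intracellular microbes, moved the same way. Of 18 tested, 16 were lower, 1 was higher and 1 did not pass, with a median log2 change of -0.38, and 14 or 15 were lower when any 1 library was left out. Igtp, an immunity-related GTPase, had 885, 905 and 931 CPM in WT FT and 620, 621 and 621 CPM in KO FT. Tgtp2, a related GTPase with the near copy Tgtp1, had 1046, 1062 and 1096 CPM in WT FT and 753, 663 and 693 CPM in KO FT. The log2 changes were -0.55 ± 0.04 and -0.60 ± 0.06, and the groups did not overlap.

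The guanylate-binding proteins among them differed from each other. Gbp11 fell from between 10.1 and 10.98 CPM to between 2.69 and 3.93 CPM, and Gbp2b, a near copy of Gbp2, from 8.09, 8.25 and 7.88 CPM to 0.906, 0.628 and 0.813 CPM. Gbp5, which promotes inflammasome assembly, was the exception and had 16.2, 15.3 and 16.02 CPM in WT FT and 30.5, 32.6 and 30.1 CPM in KO FT. Its log2 change was 0.97 ± 0.11, so it was 1.96-fold higher where 16 other GTPase genes were lower.

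Of 20 genes of MHC class I and its antigen processing, 13 were lower, none was higher and 7 did not pass, with a median of -0.25. The immunoproteasome subunits Psmb9 and Psmb8 were at 309 and 1558 CPM on average in WT FT and at 215 and 1143 CPM in KO FT. Psme2, part of the proteasome activator that interferon gamma induces, fell from 1351, 1372 and 1360 CPM to 912, 913 and 988 CPM, a log2 change of -0.54 ± 0.06. H2-T22, a nonclassical class I molecule, had a log2 change of -0.46 ± 0.05.

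To show what the ISRE-bearing members share in sequence, the RefSeq windows (build GRCm38.p6) from 250 bases before to 50 bases after the start of Ifit3 (chr19:34583279-34583578, plus strand), Ifit1 (chr19:34640639-34640938, plus strand) and Igtp (chr11:58199306-58199605, plus strand) are printed 5′ to 3′ along the gene, with the ISRE letters in capitals. The letters searched, on both strands, were GAAA, any 2 bases and GAAA again.
Ifit3: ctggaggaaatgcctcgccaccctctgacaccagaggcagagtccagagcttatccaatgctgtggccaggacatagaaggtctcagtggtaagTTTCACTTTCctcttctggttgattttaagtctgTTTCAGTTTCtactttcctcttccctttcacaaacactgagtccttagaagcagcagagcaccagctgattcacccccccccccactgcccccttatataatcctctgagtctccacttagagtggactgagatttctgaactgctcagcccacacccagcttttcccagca
Ifit1: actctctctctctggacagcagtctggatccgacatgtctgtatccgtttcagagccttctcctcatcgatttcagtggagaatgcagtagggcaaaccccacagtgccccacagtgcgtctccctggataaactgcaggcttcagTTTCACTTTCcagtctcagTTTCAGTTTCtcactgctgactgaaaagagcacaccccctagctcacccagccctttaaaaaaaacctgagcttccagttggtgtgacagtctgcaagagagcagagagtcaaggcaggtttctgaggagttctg
Igtp: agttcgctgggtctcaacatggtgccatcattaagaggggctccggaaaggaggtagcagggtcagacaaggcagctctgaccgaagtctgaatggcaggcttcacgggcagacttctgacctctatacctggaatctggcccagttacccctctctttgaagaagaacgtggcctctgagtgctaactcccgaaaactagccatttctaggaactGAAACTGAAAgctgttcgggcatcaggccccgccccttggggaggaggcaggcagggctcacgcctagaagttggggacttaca
Ifit3 and Ifit1 each hold 2 copies on the minus strand and Igtp holds 1 on the plus strand. The letters are in 3.28% of the 13458 windows of genes tested and 3.44% of all 32851 windows, in 24 of the 54 windows of the interferon-stimulated genes (44.4%), in 12 of the 33 windows of those that were lower (36.4%), and in 9 of the 11 windows of the GTPases. The window of Irf7 does not hold them, and a match is only a description of the letters.

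The transplant difference in these genes was mostly of the other sign in males after aGC and in females after PBS. Both of these settings had low Cd8a, at 4.79 to 8.10 CPM in each library, and the part of this was not tested. The difference was not fitted in males after PBS, the other setting with high Cd8a. After aGC in males the same 57 genes had a median log2 change of 0.45, with 42 higher and 3 lower in KO FT, and after PBS in females the median was 0.31, with 31 higher and 3 lower. Of all genes 24.2% were higher in the first of these comparisons and 14.9% in the second. The female minus male difference passed below 0 for 47 of the 57 and above 0 for none, where 17.4% of all genes passed below 0. The aGC minus PBS difference in females passed below 0 for 42 and above 0 for 3, where 23.8% of all genes passed below 0.

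Usp18 shows the pattern by group. In females its mean level was 79.2 CPM in WT FT and 167 CPM in KO FT after PBS, and 106 CPM and 30.4 CPM after aGC. In males it was 70.8 and 46.3 CPM after PBS, lower in KO FT as in females after aGC, and 26.7 and 70.8 CPM after aGC. The WT FT females thus had more Usp18 after aGC than the WT FT males, while the KO FT females had less than the KO FT males. Ifit3 had 116 and 387 CPM after PBS and 135 and 31.9 CPM after aGC in WT FT and KO FT females, and 43.8 and 112 CPM in WT FT and KO FT males after aGC.

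**Figure D2:**
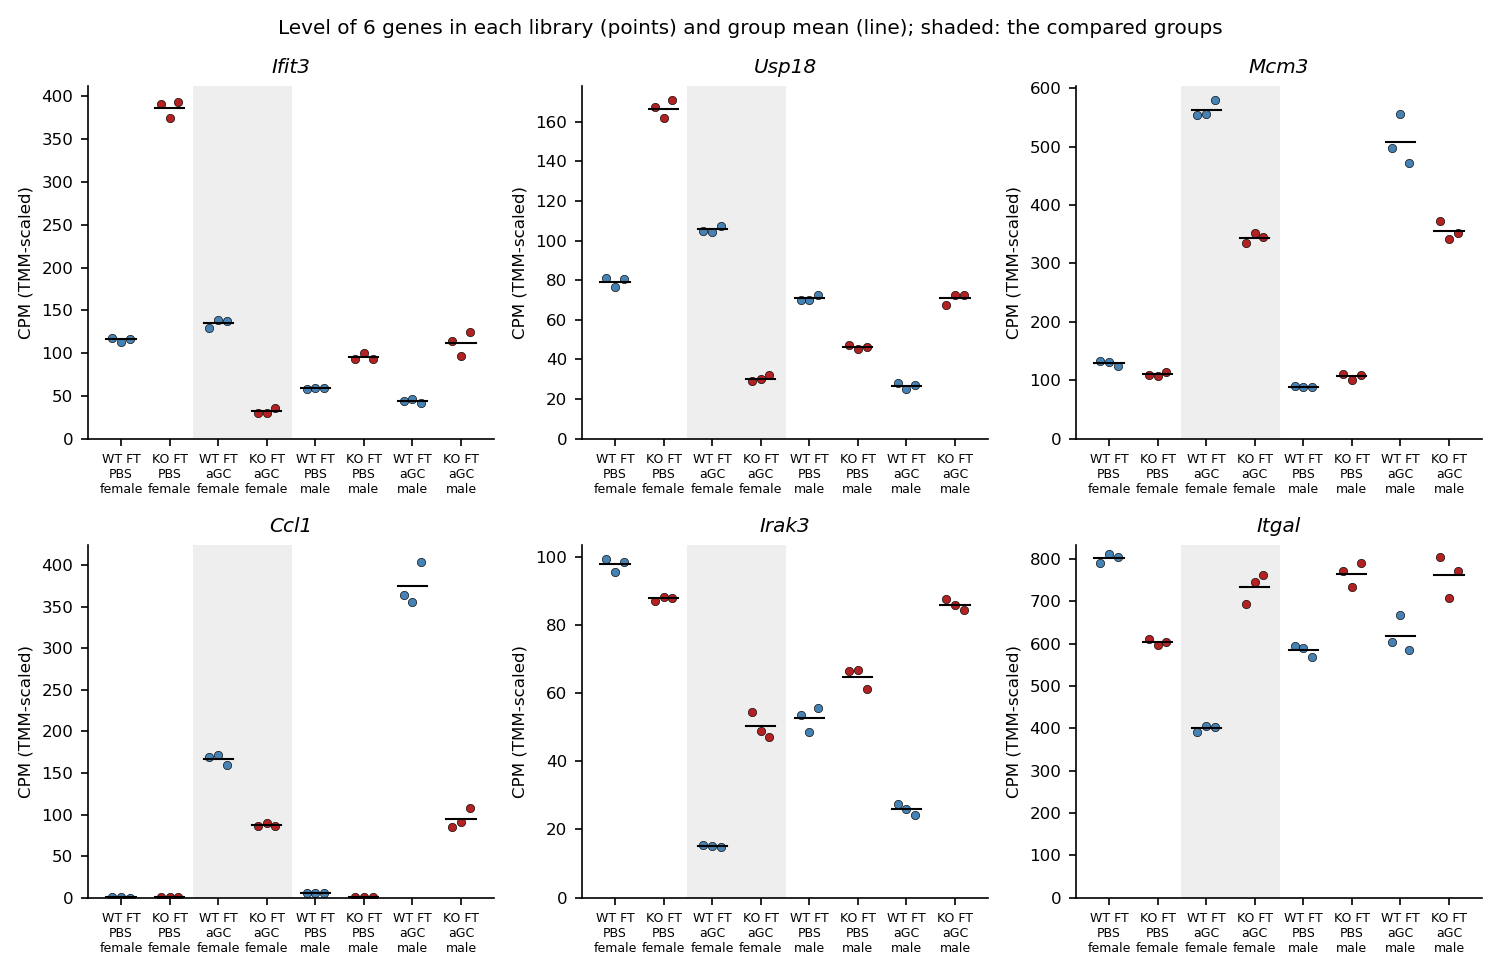
Levels (CPM with TMM scaling) of Ifit3, Usp18, Mcm3, Ccl1, Irak3 and Itgal in each of the 24 libraries (points, blue for WT FT and red for KO FT) with the group mean (line), and the compared groups shaded. In the shaded groups Ifit3, Usp18, Mcm3 and Ccl1 were lower in all 3 KO FT libraries than in any WT FT library, and Irak3 and Itgal were higher.

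Genes of DNA replication and mitosis were lower in KO FT, and here males moved the same way. Replication genes are switched on by E2F factors as cells enter S phase, and mitosis genes follow as they divide. Of 44 replication genes, 39 were lower, none was higher and 5 did not pass, with a median log2 change of -0.70, a fall of 1.62-fold. After aGC in males 38 of the 44 were lower and none was higher, with a median of -0.54, where 22.4% of all genes were lower. The female minus male difference passed for 11 of the 44, where 29.8% of all genes passed.

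Mcm2 and Mcm3, subunits of the helicase that opens replication origins, had 595, 596 and 602 CPM and 554, 556 and 579 CPM in the WT FT libraries. In the KO FT libraries they had 354, 389 and 397 CPM and 335, 353 and 345 CPM. Rrm2, the regulated subunit of ribonucleotide reductase, which makes deoxynucleotides, fell from 106, 110 and 118 CPM to 48.4, 39.8 and 38.1 CPM. All KO FT libraries lay below all WT FT libraries for the 3 genes, with log2 changes of -0.65 ± 0.05 for Mcm2, -0.71 ± 0.05 for Mcm3 and -1.41 ± 0.11 for Rrm2.

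After PBS the same genes were low in both female groups. Mcm3 had 130 CPM in WT FT and 111 CPM in KO FT females after PBS, and 563 and 344 CPM after aGC, so the KO FT level after aGC was above both groups at rest. Fen1, the nuclease that trims Okazaki fragments, went from 318 CPM in WT FT to 192 CPM in KO FT on average, but 78.8% of its exon length overlaps another annotated gene and the libraries do not keep the strand. Rfc1, the large subunit of the clamp loader, did not pass, with 53.8, 46.9 and 51.9 CPM in WT FT and 51.9, 45.0 and 45.9 CPM in KO FT.

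The window of Mcm3 (chr1:20820263-20820562, minus strand) is printed in the same way to show its E2F letters, TTTCCCGC or TTTGGCGC on either strand, in capitals.
Mcm3: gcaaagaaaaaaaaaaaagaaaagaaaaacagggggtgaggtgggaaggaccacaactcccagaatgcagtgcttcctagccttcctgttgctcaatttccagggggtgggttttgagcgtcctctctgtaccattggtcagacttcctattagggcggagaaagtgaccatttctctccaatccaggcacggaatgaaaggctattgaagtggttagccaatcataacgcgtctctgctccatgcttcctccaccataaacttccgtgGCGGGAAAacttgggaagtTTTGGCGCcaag
Both copies lie just after the start of the gene. These letters are in 2.82% of the 13458 windows of genes tested, in 1.56% of all 32851 windows and in 12 of the 40 windows of the replication genes (30%), and the windows of Mcm2 and Rrm2 do not hold them.

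Of 25 mitosis genes 16 were lower, 2 were higher and 7 did not pass, with a median log2 change of -0.87, which was the lowest median of the 47 lists. Cdc20, which triggers the exit from mitosis, had 37.6, 41.5 and 36.0 CPM in WT FT and 16.01, 16.7 and 17.4 CPM in KO FT. Ccnb1, the cyclin of mitotic entry, fell from 13.2, 12.6 and 15.2 CPM to 6.95, 4.79 and 6.25 CPM, and the kinase Plk1 from between 9.05 and 11.4 CPM to between 2.904 and 4.25 CPM. The kinetochore gene Spc24 ranged from 11.3 to 19.8 CPM in WT FT and from 4.73 to 5.73 CPM in KO FT.

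The calls of the 2 higher genes of the list and of Mki67 moved with the libraries used. No mitosis gene was higher without WT FT replicate 1 or KO FT replicate 2 or 3. Mki67, the proliferation marker, had 4.83, 2.57 and 3.82 CPM in WT FT and 1.11, 1.26 and 2.88 CPM in KO FT, and the groups overlapped. Its log2 change was -1.04 ± 0.33 with an adjusted p of 0.0136 by edgeR, and it no longer passed without WT FT replicate 1, KO FT replicate 1 or KO FT replicate 2 (adjusted p of 0.0853, 0.0708 and 0.0745) or in a fit of the 6 libraries alone (0.0774). Kifc1, Sgo1, Kntc1 and Sapcd2, which act on the spindle or the kinetochore or mark dividing cells, were among the 15 largest falls, with log2 changes of -2.28, -2.13, -2.04 and -2.38.

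Genes of protein synthesis, protein breakdown and energy metabolism were lower in KO FT by small amounts. Of 77 cytosolic ribosomal protein genes 64 were lower and none was higher, with a median log2 change of -0.33. Of 75 nuclear genes of oxidative phosphorylation 64 were lower and none was higher, with a median of -0.41, and of 31 proteasome subunits 28 were lower and none was higher, with a median of -0.32.

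Rpl4, a protein of the large ribosomal subunit, had 1452, 1465 and 1453 CPM in WT FT and 1178, 1204 and 1229 CPM in KO FT. Uqcrc1, of respiratory complex III, had 1232, 1262 and 1248 CPM in WT FT and 823, 867 and 927 CPM in KO FT. Psmd7, of the proteasome lid, had 358, 349 and 338 CPM in WT FT and 239, 226 and 226 CPM in KO FT. The groups did not overlap for any of the 3, and the log2 changes were -0.28 ± 0.03, -0.52 ± 0.05 and -0.60 ± 0.05. Rplp0, Sdhd and Psmc1 had log2 changes of -0.46, -0.47 and -0.50.

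These lists hold short genes, and the change varied with gene length. Across 15942 genes the log2 change rose with the exon length of the gene, with a Spearman rho of 0.22, and the median was -0.22 in the 3986 shortest genes and 0.14 in the 3986 longest. The median exon length was 1781 bases for the ribosomal protein genes and 1756 bases for the oxidative phosphorylation genes, against 3749 bases for all genes. The same rho was 0.182 for the change in males after aGC and -0.159 for the change in females after PBS. The points of each correlation share the same libraries, and the part of length in the falls was not tested.

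In females after PBS the sign was the other way for the same lists. There 62 of the 77 ribosomal protein genes and 51 of the 75 oxidative phosphorylation genes were higher in KO FT, with medians of 0.36 and 0.30. For 56 ribosomal protein genes both differences passed with opposite signs and the aGC minus PBS difference passed too, where 13.5% of all genes did. In males after aGC 71 ribosomal protein genes and 64 oxidative phosphorylation genes were lower, with medians of -0.49 and -0.45.

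Genes of growth metabolism that activated T cells raise were lower as well. Of 22 genes of glycolysis and lactate export 14 were lower and 2 higher, and of 23 genes of amino acid and one-carbon metabolism 17 were lower and 2 higher, with medians of -0.31 and -0.42. Pkm, pyruvate kinase, had 3105, 3121 and 2994 CPM in WT FT and 1958, 2136 and 2190 CPM in KO FT. Eno1 and Gapdh, also enzymes of glycolysis, had log2 changes of -0.51 and -0.53.

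Slc3a2, the chain shared by several amino acid transporters, and Phgdh, the first enzyme of serine synthesis, had log2 changes of -0.45 and -0.52. Of 30 ribosome biogenesis genes 17 were lower and 4 higher, among them Nop56 and Nop16 with log2 changes of -0.46 and -0.52. Of 8 subunits of the CCT chaperonin, which folds actin and tubulin, 7 were lower, and Cct7 had a log2 change of -0.43. Of 17 genes of the MYC network 5 were higher and 4 lower, but 1, 2 and 3 were higher without WT FT replicates 1, 2 and 3, and 2 without KO FT replicate 1 or 3. Srm, a MYC target that makes spermidine, fell from 768, 784 and 759 CPM to 453, 494 and 526 CPM.

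**Figure D3:**
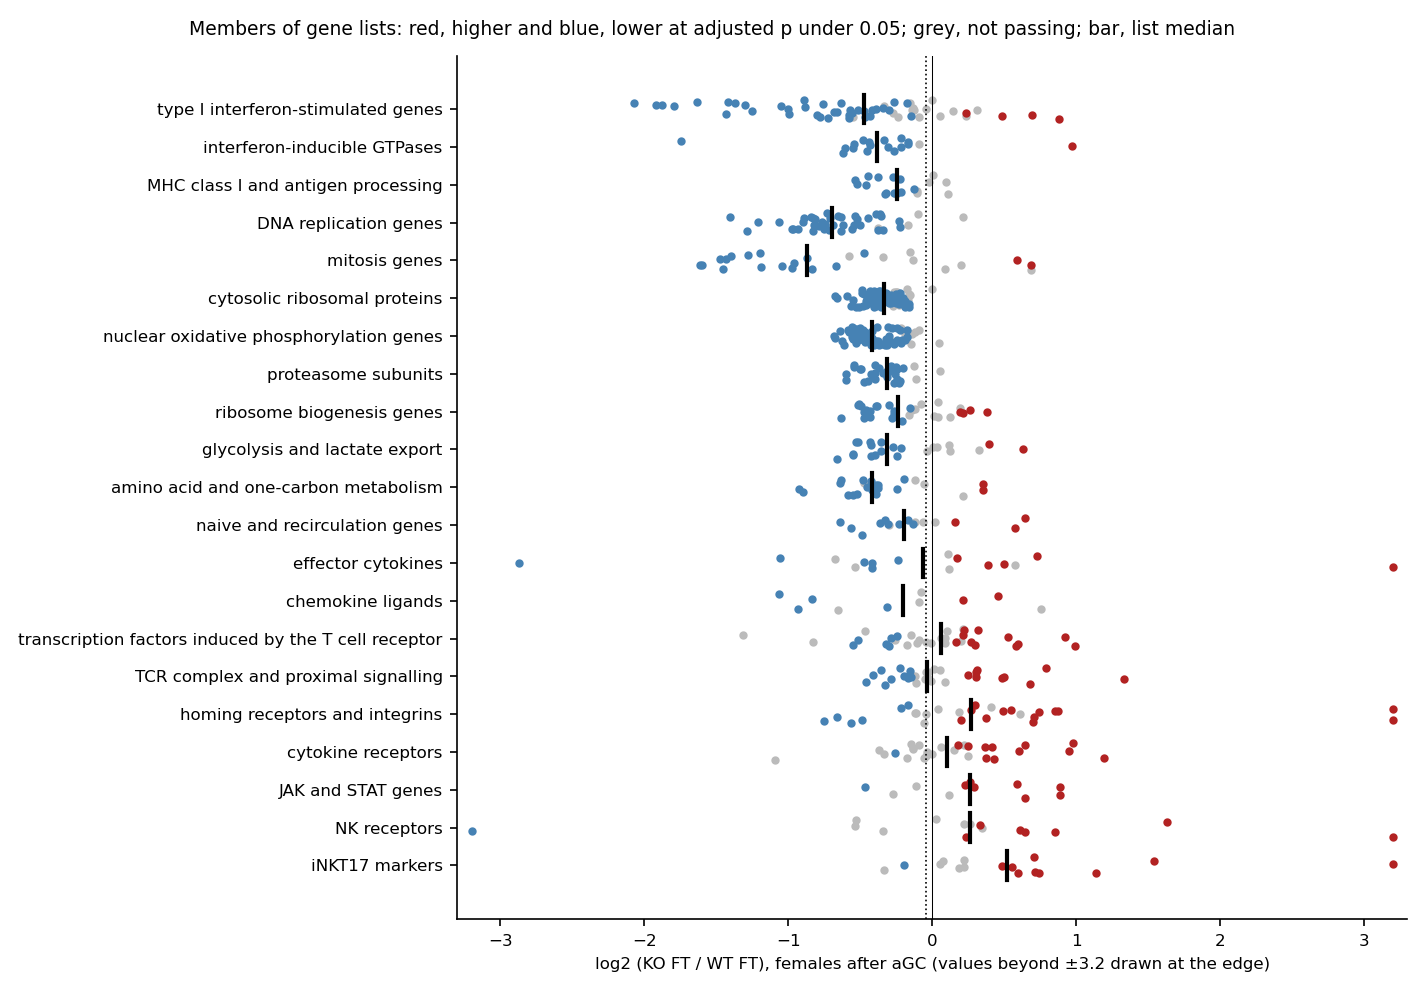
Fitted log2 change (KO FT over WT FT, females after aGC) of each tested member of 21 gene lists, with red points for members higher and blue points for members lower at an adjusted p under 0.05 by edgeR, grey points for those not passing, a bar at the list median and a dotted line at the median of all genes (-0.04). Points at the right or left edge lie beyond the drawn range and rest on groups at or near 0 counts. The interferon, replication, mitosis, ribosomal protein, oxidative phosphorylation and proteasome lists lie mostly to the left, and the homing receptor, JAK and STAT, NK receptor and iNKT17 lists have medians to the right.

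The cytokine genes that mark the response to aGC changed in both directions. Of 16 effector cytokines tested 5 were higher, 6 were lower and 5 did not pass, with a median log2 change of -0.06. Ifng, which encodes interferon gamma, had 117, 114 and 109 CPM in WT FT and 99.0, 83.0 and 73.1 CPM in KO FT, and Il4 had 110, 115 and 105 CPM in WT FT and 107, 85.2 and 88.1 CPM in KO FT. The groups did not overlap for Ifng, with a log2 change of -0.42 ± 0.08 and an adjusted p of 2.89e-04, and they overlapped for Il4, with a log2 change of -0.24 ± 0.08 and an adjusted p of 0.0267 by edgeR.

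The Il4 call did not hold without WT FT replicate 1 or 2 or KO FT replicate 2 or 3, with adjusted p between 0.0556 and 0.137, nor with upper quartile scaling (0.0689), with no filter (0.0862) or in a fit of the 6 libraries alone (0.192). Of the length of Ifng, 25.9% overlaps another annotated gene. Both cytokines were above their levels at rest in the 2 groups, since Ifng had 18.4 and 25.7 CPM and Il4 had 56.7 and 57.1 CPM in WT FT and KO FT females after PBS. Lta, which encodes lymphotoxin alpha, was lower, with a log2 change of -0.41 ± 0.06.

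A pair of cytokine genes was higher in KO FT. Tgfb1, which encodes the regulatory cytokine TGF-beta 1, had 89.9, 85.4 and 84.2 CPM in WT FT and 122, 117 and 127 CPM in KO FT. Csf2, which encodes GM-CSF, had 25.6, 25.6 and 22.7 CPM in WT FT and 31.9, 31.4 and 33.8 CPM in KO FT. Neither gene overlapped between the groups, and the log2 changes were 0.50 ± 0.06 and 0.39 ± 0.10. In males after aGC Tgfb1 had a log2 change of -0.44, and the female minus male difference passed with an adjusted p of 2.9e-08 by edgeR.

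Ccl1, the ligand of the chemokine receptor CCR8, was lower in KO FT. It had 169, 172 and 160 CPM in WT FT and 86.5, 90.2 and 86.7 CPM in KO FT, and its log2 change was -0.93 ± 0.10. In males after aGC it had 375 CPM in WT FT and 94.5 CPM in KO FT, and in females after PBS it was at 1.06 CPM or less in each library. Ccr8 itself fell from 88.7, 83.2 and 76.4 CPM to 53.9, 50.9 and 52.7 CPM, a log2 change of -0.66 ± 0.07.

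Of 10 chemokine ligands tested 2 were higher and 4 lower. The lower count was 1 without WT FT replicate 1 or KO FT replicate 1 or 2, and 2 without WT FT replicate 2 or 3 or with RLE or upper quartile scaling, and the higher count was 1 without KO FT replicate 1 or 3. Ccl4, which attracts T cells and monocytes, had 132, 133 and 128 CPM in WT FT and 101, 106 and 110 CPM in KO FT. Its adjusted p was 0.0212 by edgeR and lay between 0.0525 and 0.0711 without WT FT replicate 1 or 2 or KO FT replicate 1 or 2. Ccl5, a chemokine of effector T cells, was higher in KO FT, with a log2 change of 0.46 ± 0.12.

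Genes of the TNF family split, with 8 of 19 lower in KO FT, 4 higher and 7 not passing. Tnfrsf4, which encodes OX40, had 102, 109 and 105 CPM in WT FT and 39.1, 38.4 and 38.5 CPM in KO FT, and its ligand Tnfsf4 had 28.4, 26.1 and 29.6 CPM in WT FT and 14.8, 15.1 and 12.5 CPM in KO FT. The groups did not overlap for either, and the log2 changes were -1.44 ± 0.11 and -0.99 ± 0.15. After PBS in females Tnfrsf4 had 7.53 CPM in WT FT and 5.52 CPM in KO FT.

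Tnfrsf9, which encodes the costimulatory receptor 4-1BB, did not pass, with a log2 change of -0.01 ± 0.06. Tnfrsf18, which encodes GITR, had a log2 change of -0.55 ± 0.06, with 27.2% of its length shared with another annotated gene. Tnfrsf1b, the second receptor of TNF, was higher, with a log2 change of 0.32 ± 0.05. Among 12 follicular helper genes 3 were higher and 5 lower, and Pdcd1 (PD-1), Cxcr5, the receptor that leads cells to follicles, and Cd200 had log2 changes of -0.74, -0.75 and -0.47.

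Transcription factors that the T cell receptor induces split in both directions. Of 33 tested 11 were higher, 6 lower and 16 did not pass. Nfatc1, the NFAT factor that its own signal amplifies, had 345, 332 and 328 CPM in WT FT and 477, 508 and 532 CPM in KO FT, and Irf4, whose level follows receptor signal strength, had 60.8, 64.8 and 67.8 CPM in WT FT and 99.3, 97.3 and 92.7 CPM in KO FT. Nr4a3, an orphan nuclear receptor induced by receptor signals, rose from 7.59, 7.36 and 8.55 CPM to 15.8, 14.8 and 14.1 CPM. Bhlhe40, which supports cytokine production, fell, with a log2 change of -0.52 ± 0.09.

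For Irf4 and Nr4a3 the transplant difference was not the same in the sexes. The female minus male difference passed for both, with log2 differences of 0.56 and 1.33 and adjusted p of 0.00082 and 8.7e-05 by edgeR. For Nfatc1 males had a log2 change of 0.49, close to the 0.59 of females. After PBS in females Nfatc1 was lower in KO FT, with a log2 change of -0.63.

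Proximal signalling genes also split. Of 30 genes of the T cell receptor complex and its proximal signalling 9 were higher and 11 lower, with a median of -0.04, and 7 were lower without KO FT replicate 1 or with upper quartile scaling, 6 with no filter and 5 in the 6 libraries alone. Plcg1, the phospholipase that the receptor activates, had 59.3, 53.3 and 62.7 CPM in WT FT and 137, 141 and 162 CPM in KO FT, a log2 change of 1.33 ± 0.09. Rasgrp1, which couples its product diacylglycerol to Ras, had a log2 change of 0.79, and the adhesion receptor Cd2 one of -0.41.

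Feedback genes gave 7 higher and 7 lower of 21, with 4 lower without WT FT replicate 2 or with no filter. Tnfaip3 (A20), which restrains NF-kappa-B, had 124, 124 and 111 CPM in WT FT and 251, 245 and 244 CPM in KO FT, a log2 change of 1.04 ± 0.07. Irak3, an inhibitor of Toll-like receptor and IL-1 receptor signalling, had 15.4, 15.1 and 14.9 CPM in WT FT and 54.6, 49.0 and 47.2 CPM in KO FT, a log2 change of 1.73 ± 0.07. Neither gene overlapped between the groups. Dusp5 and Dusp1, phosphatases of MAP kinases, moved apart, with log2 changes of 0.39 and -0.34.

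The 2 genes differed in how males behaved. Irak3 was higher in KO FT males after aGC by 1.72, almost the same as in females, while Tnfaip3 in males had a log2 change of -0.10 that did not pass, and the female minus male difference of 1.14 passed with an adjusted p of 1.2e-08 by edgeR. Of 22 sensors of microbial ligands and metabolites 2 were higher and 3 lower, and each count was 1 in the 6 libraries alone. The lower count was also 1 without KO FT replicate 1, and the higher count without WT FT replicate 2 or KO FT replicate 2. Nod1, a sensor of bacterial peptidoglycan, had a log2 change of 0.83 ± 0.12, and Myd88, the adaptor of most Toll-like receptors, one of -0.50 ± 0.05.

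Homing and adhesion genes leaned upward in KO FT. Of 27 tested 13 were higher, 6 lower and 8 did not pass, with a median log2 change of 0.27. Itgal, which encodes the alpha chain of LFA-1 and holds iNKT cells in tissues, had 391, 406 and 403 CPM in WT FT and 695, 746 and 762 CPM in KO FT. Ccr9, the receptor that guides cells to the small intestine, had 144, 152 and 152 CPM in WT FT and 261, 236 and 233 CPM in KO FT. The log2 changes were 0.88 ± 0.05 and 0.70 ± 0.05, and the groups did not overlap.

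At rest these 2 genes differed in the other direction. Itgal had 802 CPM in WT FT and 604 CPM in KO FT females after PBS, and Ccr9 had 305 and 201 CPM, so both were lower after aGC than at rest in WT FT. Their aGC minus PBS differences were 1.29 and 1.30, with an adjusted p of 8.9e-12 for each by edgeR.

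Genes of naive and recirculating T cells were mostly lower, with 9 of 16 lower and 3 higher and a median of -0.20, beside the lower Cd8a given above. The lower naive level given above is the sum of these same 16 genes. Ccr7, which leads cells into lymph nodes, had 576, 587 and 587 CPM in WT FT and 383 to 410 CPM in KO FT. Il7r, the receptor of the survival cytokine IL-7, moved against the list, with 123, 133 and 128 CPM in WT FT and 225, 194 and 184 CPM in KO FT.

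Cytokine receptors and the kinases that they use were more often higher than lower. Of 28 receptors 11 were higher, 1 lower and 16 did not pass, and of 11 JAK and STAT genes 7 were higher and 1 lower, with medians of 0.10 and 0.26. These lists hold long genes, with a median exon length of 4554.5 and 5926 bases against 3749 bases for all genes. The part of length in these rises was not tested. Tgfbr2, the type II receptor of TGF-beta, had 98.9, 114 and 108 CPM in WT FT and 212, 210 and 211 CPM in KO FT. The kinases Tyk2 and Jak2 had 80.2, 83.7 and 77.6 CPM and 108, 106 and 110 CPM in WT FT, against 141, 155 and 150 CPM and 214, 199 and 187 CPM in KO FT. The groups did not overlap, and the log2 changes were 0.98, 0.89 and 0.89, with SE of 0.05, 0.06 and 0.07. Jak1 and Il2rb, the beta chain of the receptors of IL-2 and IL-15, had log2 changes of 0.65 and 0.25.

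Among the subset lists, that of iNKT17 markers had the highest median. Of 16 iNKT17 markers 9 were higher, 1 lower and 6 did not pass, with a median log2 change of 0.52. Blk, a kinase of IL-17-producing innate-like T cells, rose from 2.57, 2.68 and 3.57 CPM to 7.55, 7.22 and 10.4 CPM. Ccr2 had 37.2, 35.2 and 36.8 CPM in WT FT and 69.0, 53.1 and 61.4 CPM in KO FT.

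At rest Blk had 16.4 to 20.6 CPM in the WT FT females and 28.0 to 33.6 CPM in the KO FT females, so both female groups were lower after aGC. Ccr6, another iNKT17 receptor, had 0, 0.223 and 0 CPM in WT FT and 1.81, 1.81 and 1.56 CPM in KO FT, too few counts in WT FT for a fold.

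Of 22 iNKT1 markers 9 were higher and 5 lower, and of 15 NK receptors 7 were higher and 1 lower, with 4 higher without KO FT replicate 1 and 2 lower without KO FT replicate 3. Klrb1c, which encodes NK1.1, had 184, 176 and 188 CPM in WT FT and 305, 283 and 268 CPM in KO FT, a log2 change of 0.64 ± 0.06. Ncr1, which encodes NKp46, had no count in the 3 WT FT libraries and 3.83, 2.35 and 2.81 CPM in KO FT, at least 12.0-fold higher against a floor of 3 counts per library. Klrg1 was near 1 CPM or below in WT FT and at 1.501 to 2.20 CPM in KO FT. The summed level of 6 NK cell markers was 270 to 282 CPM in WT FT, where 2 of the 6 were at 0, and 350 to 398 CPM in KO FT. That sum is mostly Klrb1c, and 2 other markers lay the other way, Eomes at 42.4 to 47.0 and 33.9 to 42.6 CPM and Prf1 at 49.2 to 51.6 and 41.3 to 46.8 CPM. Of the 4 markers tested 2 were higher and 1 lower, and the part of NK cells in these rises was not tested.

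Other iNKT1-associated genes fell. Nkg7, a granule protein of cytotoxic cells, had 1578, 1716 and 1650 CPM in WT FT and 1143, 1122 and 1111 CPM in KO FT, and Ly6c2, also high on memory CD8 T cells, had 174, 174 and 165 CPM in WT FT and 118, 118 and 114 CPM in KO FT. The groups did not overlap, and these 2 falls stand beside the lower Cd8a. Of 14 cytotoxic effectors 7 were lower and 1 higher, with 4 lower under upper quartile scaling and 3 with no filter or in the 6 libraries alone, among them Cst7 and Tnfsf10 (TRAIL) with log2 changes of -0.32 and -0.72.

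The 14 iNKT2 markers gave 5 higher and 4 lower, with 3 higher without KO FT replicate 2. Il17rb, the receptor of IL-25 on iNKT2 cells, had 52.3, 52.1 and 58.8 CPM in WT FT and 80.2, 84.3 and 83.1 CPM in KO FT. Plac8 and Izumo1r had log2 changes of -0.63 and -0.34. Of 23 lineage factors 9 were higher, 3 lower and 11 did not pass, with a median log2 change of 0.06. Leaving out 1 library at a time gave 6 to 9 higher, and 1 was lower without WT FT replicate 1 or KO FT replicate 3.

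Bcl6, the factor of follicular helper cells, had 5.33, 6.75 and 4.90 CPM in WT FT and 11.3, 10.4 and 13.6 CPM in KO FT, a log2 change of 1.05 ± 0.21, while the follicular genes Cxcr5 and Pdcd1 were lower. Id2 and Maf had log2 changes of 0.35 and -0.40. Tbx21, the iNKT1 factor T-bet, had 421, 412 and 411 CPM in WT FT and 402, 434 and 446 CPM in KO FT and did not pass, and Zbtb16 had a log2 change of -0.02 ± 0.09. Gata3 had a log2 change of 0.29 ± 0.11 with an adjusted p of 0.0301 by edgeR, which lay between 0.0525 and 0.165 on leaving out any single library other than KO FT replicate 1. Cd4 had 206, 204 and 200 CPM in WT FT and 175, 219 and 220 CPM in KO FT, and Cd1d1, which encodes CD1d, had 43.9, 42.0 and 41.7 CPM in WT FT and 37.9, 41.1 and 39.5 CPM in KO FT, and neither passed.

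Smaller lists held single clear genes. Of 11 glucocorticoid-induced genes 6 were higher and 3 lower, and Zfp36l2, which destabilises mRNA, Ddit4, an inhibitor of mTORC1, and Txnip, which limits glucose uptake, had log2 changes of 1.07, 1.48 and 0.54. Of 11 purinergic genes 6 were higher and 1 lower. Adora2a, an inhibitory adenosine receptor, ranged from 21.5 to 30.7 CPM in WT FT and from 39.6 to 52.3 CPM in KO FT, P2rx7 had a log2 change of 0.43, and Ada, which breaks adenosine down, one of -0.59.

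Clock genes gave 3 higher and 2 lower of 14 (1 lower without WT FT replicate 2 or KO FT replicate 2), with log2 changes of 0.99 for Nr1d2, 0.49 for Arntl and -0.46 for Dbp. Sterol genes gave 7 higher and 6 lower of 25, with Hmgcs1 at 0.71 and Fdps at -0.50 on the log2 scale. Unfolded protein response genes gave 5 higher and 8 lower of 23, heat shock genes 7 and 6 of 19, and BCL2 family genes 3 and 8 of 25. The lower heat shock count was 3 without KO FT replicate 2 and 1 in the 6 libraries alone, where 7 BCL2 family genes were higher, and the higher sterol count was 4 without WT FT replicate 2 or KO FT replicate 1. Among these lists the chaperone genes Sdf2l1, Canx, Dnajb4 and Hspa1b had log2 changes of -0.68, 0.41, 1.24 and 1.01, and the death genes Bax, Bid and Casp8 had -0.40, -0.43 and -0.29. Of 16 co-inhibitory receptors 3 were higher and 4 lower (2 without WT FT replicate 3 or KO FT replicate 2), and Cd101 had a log2 change of 1.28.

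The genes with the largest changes were mostly of low level. Penk, the precursor of enkephalins, which some activated T cells make, had 1.19, 0.781 and 0.830 CPM in WT FT and 8.06, 9.65 and 11.1 CPM in KO FT. The next rises were Atp7a, a copper transporter, from 1.51, 1.39 and 1.99 CPM to 8.46, 6.91 and 8.57 CPM, and Dgkq, a diacylglycerol kinase, from 5.52, 5.35 and 7.14 CPM to 23.9, 26.4 and 22.6 CPM. S100a4, Camk2b, Rasgef1a and Prickle1 rose with log2 changes of 1.96, 1.90, 1.85 and 1.80. Of the exon length of S100a4 and Dgkq, 51.7% and 29.1% overlap other annotated genes.

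Penk did not keep 1 direction across the series. Its mean level in WT FT and KO FT was 0.934 and 9.59 CPM in females after aGC, but 44.7 and 0.0534 CPM in males after aGC and 8.58 and 0.0296 CPM in males after PBS, so the group with Penk varied from one setting to the next.

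Among the falls, Pmepa1, an inhibitor of TGF-beta signalling that TGF-beta itself induces, had 16.9 to 21.97 CPM in WT FT and 3.93, 4.08 and 4.63 CPM in KO FT. Qk, an RNA-binding protein, had 11.9, 12.5 and 17.1 CPM in WT FT and 3.42, 2.75 and 2.56 CPM in KO FT, and Alcam, the ligand of CD6, had 8.91, 11.5 and 9.96 CPM in WT FT and 2.62, 1.65 and 2.00 CPM in KO FT. For none of these did the groups overlap. Map1b fell from between 7.59 and 9.21 CPM to between 0.625 and 1.65 CPM, with a log2 change of -2.99. The B cell genes Cd22 and Cd74 had log2 changes of -2.42 and -0.65, beside the lower summed B cell markers in KO FT, a sum that holds both genes. The part of B cells in these falls was not tested.

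The comparison with males and with rest was made for all genes. Of the 15953 genes, 4756 (29.8%) passed the female minus male difference, 1978 above and 2778 below 0, and 7058 (44.2%) passed the aGC minus PBS difference in females, 3264 above and 3794 below 0. In both sexes after aGC 4077 genes passed, 3367 of them with the same sign, and 710 genes (4.45%) passed with opposite signs together with the difference. In females after aGC and after PBS 2682 genes passed, 531 (3.33%) with the same sign, and 2151 (13.5%) passed with opposite signs together with the difference. Across 8359 genes with higher levels the female and male changes had a Pearson r of 0.477 and a Spearman rho of 0.509, and the changes after aGC and after PBS had -0.401 and -0.434, as descriptions over genes that share libraries.

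**Figure D4:**
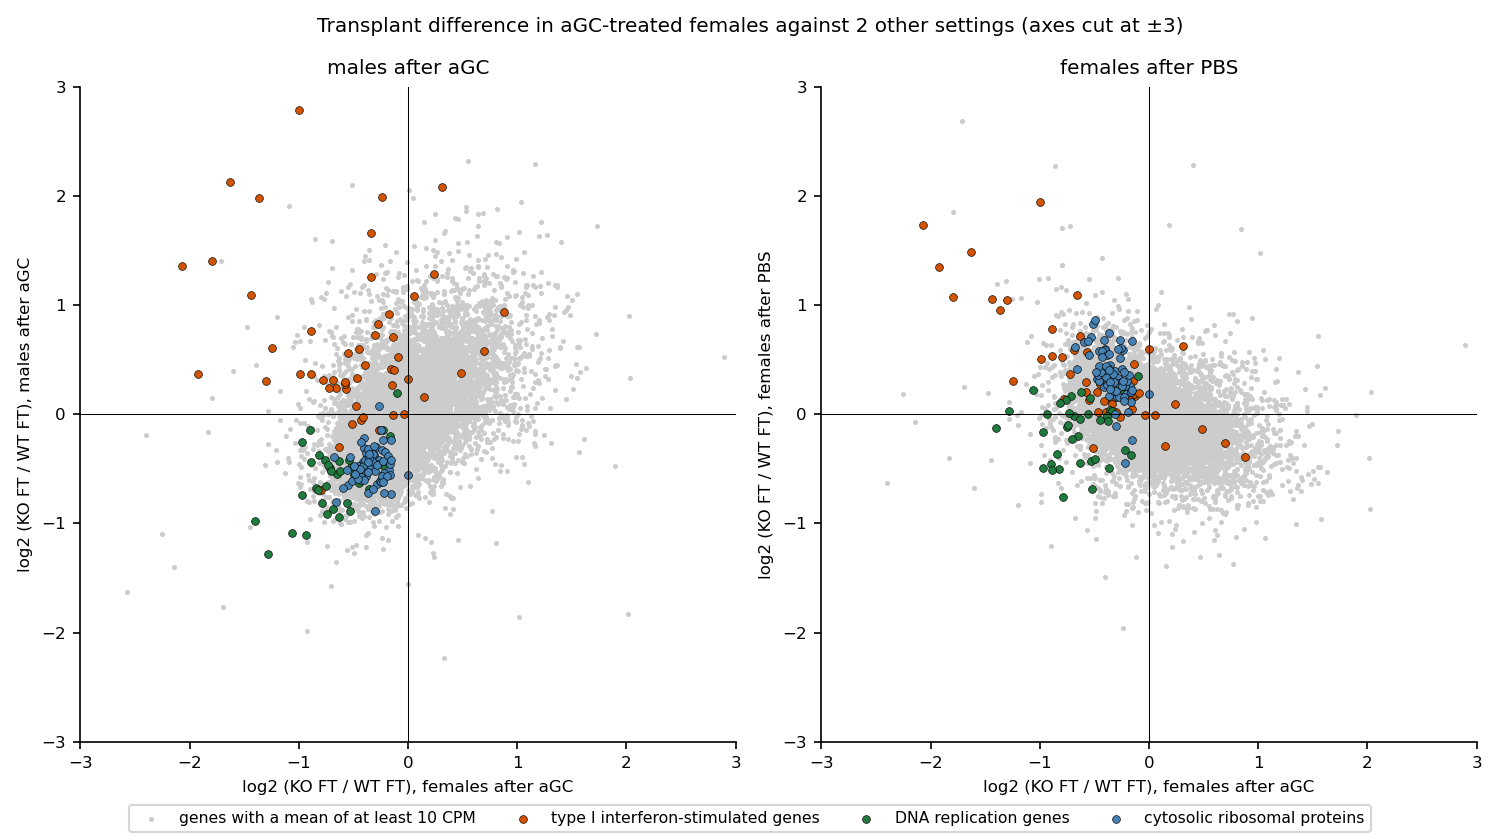
Log2 change of KO FT over WT FT in females after aGC (x axis of both panels) against the same change in males after aGC (left) and in females after PBS (right), for genes with a mean of at least 10 CPM, with the type I interferon-stimulated genes, DNA replication genes and cytosolic ribosomal protein genes coloured. The interferon-stimulated genes lie mostly to the upper left of both panels, the replication genes and ribosomal protein genes to the lower left for males, and the ribosomal protein genes to the upper left for females after PBS.

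The pools also differed in admixture between these settings, in a way that follows treatment and sex together. Cd8a was at 245 and 189 CPM in WT FT and KO FT females after aGC and at 287 and 136 CPM in males after PBS, but at 6.30 and 5.20 CPM in females after PBS and at 6.21 and 7.59 CPM in males after aGC. The part of this in the differences between females and males, and between aGC and PBS, was not tested. Arhgap30, a GTPase-activating protein, and Xlr3b, an X-linked gene of the Xlr3 family of near copies, had the lowest adjusted p of these tests with Ifit3, Usp18, Irak3 and Tgfbr2. Arhgap30 went from 115, 120 and 109 CPM to 235, 250 and 244 CPM, against 253 and 193 CPM in WT FT and KO FT at rest, and Xlr3b from 52.1, 55.4 and 59.6 CPM to 29.0, 23.9 and 25.8 CPM, against 16.2 and 60.9 CPM in WT FT and KO FT males after aGC.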

How the data were processed

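The deposited table holds expected counts per gene in whole numbers, which the authors made with kallisto against GRCm38 (mm10), per the submitters' processing notes. The sources used here do not give its version, the annotation release or the summing of transcripts to genes. Libraries were made with Nextera XT, which does not keep strand, per the labels' protocols. Of 55335 genes, 42058 had a count and 55154 matched GENCODE M21.

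Low genes were removed by filterByExpr over the 8 groups, at a minimum count of 10 and a minimum total of 15, and counts were scaled by TMM. The quasi-likelihood fit of edgeR 4.0.16 (R 4.3.3, limma 3.58.1) used all 24 libraries and 8 group means, with 16 residual degrees of freedom. Contrasts were two-sided, adjusted by Benjamini-Hochberg over 15953 genes, with a threshold of 0.05. SE is the log2 change over the root of its F statistic. DESeq2 1.42.0 was an alternative. The fit was tested on simulated data. Figures used Python 3.11.15 and matplotlib 3.10.9.

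The comparison and the 47 gene lists (1043 entries, which overlap) were chosen with earlier results of these data known. Named genes are those among the 15 largest rises and falls at 5 CPM or more without overlap, up to 4 passing and 2 other members of each list, a set of genes always named (among them Ifng, Il4, Tbx21, Gata3, Zbtb16, Bcl6, Mki67, Cd8a, Cd8b1, Cd4, Trav11, Cd1d1) and the 6 with the lowest adjusted p in each difference. Not all of them are reported here. Chance tests of lists were not made.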

Additional observations from a re-analysis of the deposited data

Results flagged for a closer look

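The transplant difference was not the same in the other settings for many genes. The female minus male difference after aGC passed in edgeR for 4756 genes (29.8%) and the aGC minus PBS difference in females for 7058 genes (44.2%). Among 138 of the genes named here they passed for 87 and 114. These genes were chosen in part by the same tests and by the female change after aGC that both differences hold, so higher shares are built in. The values that follow are for the genes of largest change, the genes always named and those with the lowest adjusted p in these tests, where both differences passed with opposite signs, the difference between them passed, and each of the 4 groups had at least 1 CPM on average.

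Between females and males after aGC, the log2 difference was -3.43 for Ifit3, -3.20 for Usp18, -2.53 for Ifit1, -2.996 for Xlr3b, -0.66 for Cd8a and 2.37 for Camk2b. Between aGC and PBS in females it was -3.81 for Ifit3, -2.87 for Usp18, -2.49 for Ifit1, -0.89 for Ifng, 1.47 for Arhgap30, 1.53 for Tgfbr2, 2.89 for Dgkq and 3.33 for Atp7a. Ifit3, Usp18 and Ifit1 stand in both sets. Their sign had to be the same in both, since both differences hold the same female change after aGC. The admixture of Cd8a differed between the settings, as given above, and its part was not tested.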

How the results depend on the processing

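The count of 6931 genes stayed between 5554 and 6883 under RLE and upper quartile scaling, DESeq2, no filter, a filter of 5 CPM in 3 libraries, and the 6 compared libraries alone. Most passing genes were lower (3896 against 3035 higher), as with RLE (3661 and 3194) and upper quartile scaling (3433 and 3308), DESeq2 (3681 and 3177) and the 5 CPM filter (3100 and 2454), but most were higher with no filter (3369 lower and 3514 higher) and in the 6 libraries alone (2775 lower and 2974 higher). Without 1 library it was 6079 to 6425 (2631 to 2782 higher, 3402 to 3643 lower), 4173 to 4597 for the female minus male difference and 6572 to 6788 for the aGC minus PBS difference. Tested against a 1.5-fold change, 1109 genes passed (735 higher, 374 lower), 1105 for the female minus male difference (358 above and 747 below 0) and 2297 for the aGC minus PBS difference (1271 above and 1026 below 0). With 1 profile per group, 0 genes passed in edgeR for all 3 tests, and 446, 347 and 388 had an unadjusted p under 0.05. That fit took its spread between the 8 profiles in a fit of main effects only, with a biological coefficient of variation of 0.419, against 0.108 between libraries of a group. A fit of main effects counts a transplant difference that varies between settings as spread, so the 2 values do not measure the same spread.

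Same-numbered libraries did not deviate together (correlations of -0.17, -0.0465 and -0.0657 over 8359 genes). Libraries of different numbers had correlations of -0.057 to 0.114. Deviations from a mean of 3 libraries constrain each other, so these values cannot decide whether the numbers pair the libraries. With the replicate number as a block 6793 genes passed, and no gene named here changed its call.

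Changes near 0 had no stable sign. Zbtb16 was at 0.00178 with RLE scaling, 0.0207 with upper quartile scaling, 0.00951 with no filter, 0.0129 with the 5 CPM filter, 0.0623 in the 6 libraries alone, 0.00152 in DESeq2, and between -0.0929 and 0.0575 without 1 library. Cd4 lay between -0.0508 and 0.111 without 1 library. In the 6 libraries alone Tbx21 and Trav11 passed, at 0.13 each (adjusted p of 0.0439 and 0.0452), and Il4 and Mki67 no longer did (0.192 and 0.0774). Genes of a few CPM, such as Mki67, are limited by depth.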

Other observations

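Markers of other cells were measured as well. The summed level of 4 regulatory T cell markers was 204 to 216 CPM in WT FT and 190 to 201 CPM in KO FT, which did not overlap, though none of the 4 passed by itself in edgeR. That sum is mostly Il2ra, at 181 to 196 CPM in WT FT and 166 to 178 CPM in KO FT. The fitted change was above 0 for 3 of the 4 markers and below 0 for 1. The 12 stromal and epithelial markers summed to 67.7 to 80.5 CPM in WT FT and 71.6 to 74.8 CPM in KO FT. Among them Cdh1, which encodes E-cadherin, passed higher, with 0.498 to 0.781 CPM in WT FT and 1.88 to 3.30 CPM in KO FT. The 5 red cell markers stayed under 1 CPM in each library. The 5 Trbv segments that iNKT cells mostly use made up 67.7 to 68.3% of Trbv counts in WT FT and 69.1 to 70.6% in KO FT. Among them Trbv29 was higher and Trbv13-1 lower in KO FT, as given above.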
